A study of Mus musculus with 6 samples.

Results

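The genes described here are 10 markers of TREM2-positive lipid-associated macrophages: Trem2, Tyrobp, Gpnmb, Cd9, Spp1, Lgals3, Fabp5, Cd63, Itgax and Lpl. They were chosen by symbol from a table of 28601 genes, and all 10 were present and tested. Liver RNA was sequenced from 6 male mice. Of these, 3 carried PRDX1 Cys52Ser, in which serine replaces a cysteine of peroxiredoxin 1, an enzyme that reduces hydrogen peroxide, and 3 were wild type (WT). From 8 weeks of age all mice ate CDAHFD, a high-fat diet without choline in which free amino acids replace protein and which makes mouse liver fatty, inflamed and fibrotic. The titles and the design give 8 weeks of feeding for both groups. The treatment field instead reads 11, 12 and 13 weeks for the Cys52Ser mice and 8, 9 and 10 weeks for the WT mice, so by that field genotype and time on diet cannot be told apart. Strain, zygosity and the tissue reach of the allele were not given in the sources used here. A substitution cannot be read from gene-level counts, so the genotype labels were not checked.

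Lipid-associated macrophages are cells that take up and digest lipid in fatty liver, adipose tissue and atherosclerotic plaques. Their receptor TREM2 binds lipids, lipoproteins and cell debris and has no signalling tail of its own. It signals through the adaptor DAP12, which Tyrobp encodes and which recruits the kinase SYK. In fatty liver, macrophages with this expression pattern derive mainly from recruited monocytes and lie near lipid-laden and scarred areas, whereas Kupffer cells are the resident macrophages. The samples were whole liver, so fewer cells of a type and less RNA per cell cannot be told apart, and none of the values below belongs to macrophages alone. Spp1 and Cd9 are also expressed by bile duct cells and Cd63 by most cell types.

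Gpnmb and Itgax were the 2 members closest to Trem2 in pattern over the libraries. Spp1 was the most abundant member, but it was not called and ranked only 3329 in likeness to Trem2. Among members with a searched window, Trem2, Gpnmb, Itgax and Spp1 were those with a match to a motif. The windows of Cd9, Cd63 and Lgals3 and the second window of Spp1 held none and are not shown. All of these genes lay lower in every Cys52Ser library than in every WT library, as 9 of 10 members did. The stretches before the transcription starts of Trem2, Gpnmb, Itgax and Spp1 are shown. Each is the 250 bases upstream of the start on the plus strand, 5′ to 3′, from RefSeq on GRCm38.p6: chr17:48346151-48346400 for Trem2, chr6:49036268-49036517 for Gpnmb, chr7:128129300-128129549 for Itgax and chr5:104434861-104435110 for Spp1. Capitals mark matches to the searched motifs.
Trem2: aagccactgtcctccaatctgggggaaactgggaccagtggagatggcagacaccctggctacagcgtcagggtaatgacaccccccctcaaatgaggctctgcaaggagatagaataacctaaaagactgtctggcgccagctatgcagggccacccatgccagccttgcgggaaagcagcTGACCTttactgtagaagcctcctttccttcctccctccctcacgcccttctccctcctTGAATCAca
Gpnmb: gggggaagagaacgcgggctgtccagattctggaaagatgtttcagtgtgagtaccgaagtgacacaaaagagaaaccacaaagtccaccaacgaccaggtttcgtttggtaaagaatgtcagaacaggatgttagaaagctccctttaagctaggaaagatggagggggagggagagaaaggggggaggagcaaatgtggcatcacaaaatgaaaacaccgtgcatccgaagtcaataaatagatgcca
Itgax: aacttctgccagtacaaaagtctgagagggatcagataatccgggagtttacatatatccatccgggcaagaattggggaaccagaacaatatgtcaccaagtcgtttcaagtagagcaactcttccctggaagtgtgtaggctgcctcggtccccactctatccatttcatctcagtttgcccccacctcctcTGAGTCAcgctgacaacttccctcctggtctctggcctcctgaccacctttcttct
Spp1: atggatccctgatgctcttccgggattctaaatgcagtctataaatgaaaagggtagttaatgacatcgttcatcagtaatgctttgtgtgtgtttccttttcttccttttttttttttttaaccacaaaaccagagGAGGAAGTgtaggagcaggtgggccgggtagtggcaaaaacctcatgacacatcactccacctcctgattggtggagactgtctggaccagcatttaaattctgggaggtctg

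Upstream of Trem2 the capitals are TGAATCA, a match to the AP-1 motif 9 bases before the start, and TGACCT, the reverse complement of the nuclear receptor site AGGTCA, 68 bases before it. Upstream of Itgax they are TGAGTCA, an AP-1 match 56 bases before the start, and upstream of Spp1 GAGGAAGT, the PU.1 motif, 113 bases before it. The Gpnmb stretch held no match, and its only one, AP-1 again, began 9 bases after the start. RefSeq windows of 250 bases before to 50 after the start were found for 7 members, with 8 windows because Spp1 has 2. Tyrobp, Fabp5 and Lpl had no entry. Both strands were searched. AP-1 (TGANTCA) stood in 3 of 8 member windows and in 7.81% of 32851 windows of all genes. PU.1 (GAGGAAGT) stood in 1 of 8 and 3.20% of all, the nuclear receptor site in 1 of 8 and 16.3%, and the antioxidant response element (TGACNNNGC) in 1 of 8, that of Itgax after its start, and 12.4%. The M-box (TCATGTG) and the E-box of lysosomal genes (CACGTG) stood in 0 of 8, with 3.77% and 7.15% of all windows. A match describes letters and is not a bound site, and AP-1 and the antioxidant response element share the letters TGAC.

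All 10 members had lower fitted levels in Cys52Ser livers, and 6 of them passed the test: Gpnmb, Trem2, Itgax, Cd63, Cd9 and Tyrobp. The test was edgeR's quasi-likelihood test on the deposited estimated counts, with Benjamini-Hochberg adjustment over 18648 genes and a threshold of 0.05. Of all tested genes 2.46% were called lower, 2.52% higher and 4.98% in either direction. No member was called higher, at an unadjusted p under 0.05 either, and 9 were lower at that level, as they were by adjusted p in DESeq2 and in limma on FPKM. Of all genes DESeq2 called 1179 of 16343 lower and limma on FPKM 2974 of 13978. The share of all genes lower at an unadjusted p under 0.05 is not given here. Every Cys52Ser library lay below every WT library for 9 of 10 members, an order held by 15.2% of all tested genes. Fabp5 was the member whose groups overlapped. The median log2 fold change of the members was -1.27, and that of all tested genes was -0.003.

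Total counts ran from 53318196 to 73900923 per library. Albumin took 8.08% to 8.49% of counts in Cys52Ser libraries and 3.60% to 5.55% in WT libraries, and TMM scaling factors were 0.814 to 0.963 in Cys52Ser and 1.05 to 1.21 in WT. Without composition scaling (library totals alone) the median of all genes was -0.35 and that of the members -1.62. The 10 members stayed negative in each of 19 other settings of the analysis. The calls varied with the libraries included. All 6 were lost without Cys52Ser replicate 1 (adjusted p 0.0613 to 0.117), Cys52Ser replicate 3 (0.0747 to 0.153) or WT replicate 2 (0.0561 to 0.0931), fits in which 31, 28 and 57 of all genes were called. Their log2 fold changes, -1.51 to -0.80 with all libraries, were -1.69 to -0.99, -1.50 to -0.77 and -1.70 to -0.89 in these fits. Without WT replicate 1 Gpnmb, Trem2 and Itgax kept their calls, and without WT replicate 3 all but Tyrobp did (adjusted p = 0.0653). Without Cys52Ser replicate 2 Itgax (0.0955) and Tyrobp (0.0701) lost theirs and Spp1 gained one (0.0396).

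**Figure D1:**
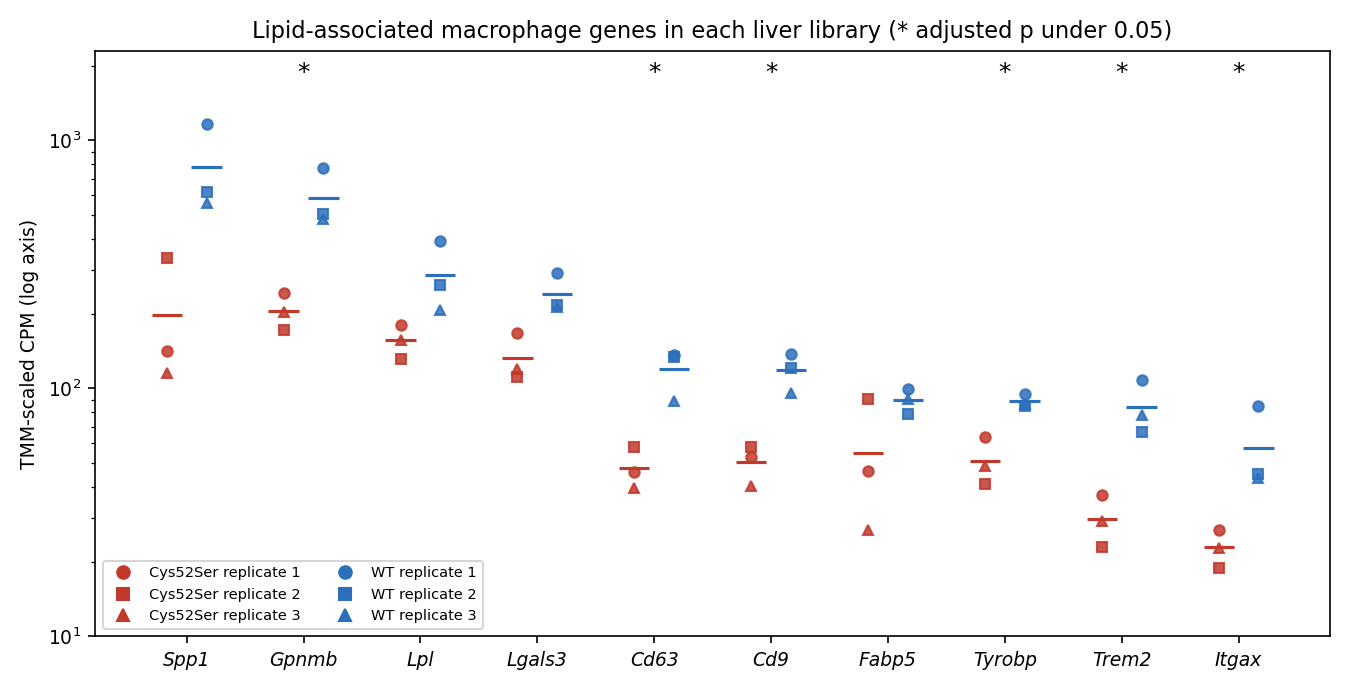
TMM-scaled CPM (log axis) of the 10 members in each liver library, Cys52Ser in red left of WT in blue, bars at group means and stars for members called in the edgeR test. Fabp5 is the member whose groups overlap, with Cys52Ser replicate 2 at 90.6 CPM.

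The receptor and its adaptor were both lower. Trem2 (ENSMUSG00000023992, GRCm38 chr17:48346401-48354147) was at 37.0, 23.0 and 29.2 CPM (counts scaled to library size by TMM) in Cys52Ser replicates 1, 2 and 3 and at 108, 66.9 and 77.9 CPM in WT replicates 1, 2 and 3. The highest Cys52Ser library was at 55.3% of the lowest WT library. The means were 29.8 ± 7.05 and 84.4 ± 21.5 CPM in Cys52Ser and WT (SD, n = 3 each), a 2.84-fold lower level (95% confidence interval 1.93 to 4.16) with an adjusted p of 0.0243. Tyrobp (ENSMUSG00000030579, chr7:30413760-30417582), the DAP12 gene, had 63.6, 40.9 and 48.5 CPM in Cys52Ser livers and 95.1, 84.6 and 86.8 CPM in WT livers. The WT livers lay close together, with a coefficient of variation of 6.22%, and the Cys52Ser livers spread to 22.6%. Tyrobp was 1.74-fold lower (1.33 to 2.28), adjusted p = 0.0434, and this call was lost in all 6 fits that left out a library, at adjusted p up to 0.145.

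Among genes that act with the receptor the count of calls depended on the scaling. Of 21 tested genes of TREM2 and DAP12 signalling, 1 was called lower and none higher (7 and 1 at an unadjusted p under 0.05, 3 and 1 in DESeq2), with a median log2 fold change of -0.27. The share called by edgeR is near the background. Fold changes were negative for 19 of the 21 and positive for 2. Every Cys52Ser library lay below every WT library for 10, against 15.2% of all tested genes, and above for 1. With library totals alone 9 of the 21 were called lower and none higher, and in limma on FPKM 11 and 0. Of all genes those fits called 2724 of 18648 and 2974 of 13978 lower. The called gene was Lat2, a membrane adaptor of immune receptor signalling, which averaged 4.27 ± 1.03 CPM in Cys52Ser livers and 13.7 ± 3.99 CPM in WT livers, 3.20-fold lower (adjusted p = 0.0243). Its call was lost when any Cys52Ser library or WT replicate 2 was left out. Syk, the kinase that docks on DAP12, was at 29.2 ± 5.48 CPM in Cys52Ser and 43.1 ± 1.80 CPM in WT (log2 fold change -0.56, adjusted p = 0.072). The difference between Trem2 and these genes was not tested.

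The vesicle and surface glycoproteins gave 3 of the 6 calls. Gpnmb (ENSMUSG00000029816, chr6:49036546-49070929), a transmembrane glycoprotein of late endosomes, lysosomes and the cell surface, was at 243, 171 and 203 CPM in Cys52Ser livers and at 774, 505 and 481 CPM in WT livers. The groups were far apart: the highest Cys52Ser value was 50.4% of the lowest WT value. The change was 2.85-fold lower (1.96 to 4.15), adjusted p = 0.0234. Cd9 (ENSMUSG00000030342, chr6:125460266-125494791, minus strand), a tetraspanin of the cell surface, had 52.9, 58.0 and 40.3 CPM in Cys52Ser livers and 137, 121 and 95.9 CPM in WT livers. It was 2.34-fold lower (1.74 to 3.16), adjusted p = 0.0229, the smallest among the members. Antisense genes overlap Cd9 on the other strand, and they held at most 31 counts in any library against 2105 or more for Cd9. Cd63 (ENSMUSG00000025351, chr10:128900989-128912822), a tetraspanin of late endosomes and lysosomes, had 46.0, 57.9 and 39.7 CPM in Cys52Ser livers and 136, 134 and 88.7 CPM in WT livers. It was 2.50-fold lower (1.78 to 3.51), adjusted p = 0.0243. A processed pseudogene copy of Cd63 also carried counts, 342, 251 and 199 in Cys52Ser and 971, 712 and 450 in WT, so reads may be split between them and the Cd63 level is uncertain by that amount.

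Of 15 other tetraspanins, none was called in either direction by edgeR (5 lower and 1 higher at an unadjusted p under 0.05, 1 and 1 in DESeq2), and their median log2 fold change was -0.08. Tspan8 was not called (fitted change of -2.11 on the log2 scale, adjusted p = 0.182) and stood at 16.0 CPM in Cys52Ser replicate 2 and at 2.95 and 2.85 CPM in the other Cys52Ser libraries, against 41.3, 33.3 and 19.1 CPM in WT. It was named after its values were seen.

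Itgax (ENSMUSG00000030789, chr7:128129547-128150657) encodes CD11c, the integrin alpha chain that pairs with the beta-2 chain. It was at 26.9, 18.8 and 22.8 CPM in Cys52Ser livers and at 84.5, 45.0 and 43.4 CPM in WT livers. WT replicate 1 stood well above the other WT libraries, and the groups did not overlap. The change was 2.53-fold lower (1.59 to 4.04), adjusted p = 0.0484. Without WT replicate 1 it was 2.01-fold lower, adjusted p = 0.0434. With no filter on low counts the adjusted p was 0.0634. Itgb2, the beta-2 chain, was at 87.5 ± 21.7 CPM in Cys52Ser and 145 ± 43.9 CPM in WT (log2 fold change -0.73, adjusted p = 0.148). None of the 4 tested genes of leukocyte beta-2 integrins other than Itgax was called by edgeR, with 2 lower at an unadjusted p under 0.05 and 2 lower in DESeq2.

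Of the secreted members, Spp1 spread widely and Lgals3 did not, and neither was called. Spp1 (ENSMUSG00000029304, chr5:104435118-104441050) encodes osteopontin, a secreted phosphoprotein that binds integrins and CD44. It had 141, 335 and 116 CPM in Cys52Ser livers and 1161, 618 and 558 CPM in WT livers. The groups did not overlap, yet Cys52Ser replicate 2 held 2.60 times the mean of the other Cys52Ser libraries. The fitted level was 3.95-fold lower with an interval from 1.77 to 8.80, and the adjusted p of 0.0691 missed the threshold. Without Cys52Ser replicate 2 it was 6.06-fold lower, adjusted p = 0.0396. A gene model on the same strand overlaps Spp1 and held at most 106 counts in any library, against 6048 or more for Spp1. Lgals3 (ENSMUSG00000050335, chr14:47367751-47386160) encodes galectin-3, a lectin that binds beta-galactosides. It was at 168, 111 and 119 CPM in Cys52Ser livers and 293, 216 and 213 CPM in WT livers. The groups did not overlap, and the log2 fold change was -0.86 (SE 0.20; adjusted p = 0.0597).

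Among 10 osteopontin receptor genes, Itga8, an integrin alpha chain of stellate and smooth muscle cells, was called lower, at 10.5 ± 1.69 CPM in Cys52Ser and 49.3 ± 21.98 CPM in WT (4.68-fold, adjusted p = 0.0229). None was called higher, 5 were lower and 1 higher at an unadjusted p under 0.05, and DESeq2 called 2 lower and 1 higher. The median was -0.35. No call was made among these 10 when any Cys52Ser library or WT replicate 2 was left out, and 2 were lower without WT replicate 1 or WT replicate 3. Of 7 tested galectins besides Lgals3, none was called by edgeR or DESeq2, and 2 were higher at an unadjusted p under 0.05. Their median of 0.46 became -0.05 without Cys52Ser replicate 2, in which 1 was called lower. With library totals alone 1 was called lower and none higher, and in limma on FPKM 2 and 0.

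The lipid-handling members were not called. Lpl (ENSMUSG00000015568, chr8:68880491-68906934), the enzyme that frees fatty acids from lipoprotein triglyceride, had 180, 132 and 156 CPM in Cys52Ser livers and 394, 260 and 206 CPM in WT livers. The highest Cys52Ser library reached 87.4% of the lowest WT library. The log2 fold change was -0.88 (SE 0.25), adjusted p = 0.0929. Fabp5 (ENSMUSG00000027533, chr3:10012548-10016607), a cytosolic fatty acid carrier, had 46.6, 90.6 and 26.8 CPM in Cys52Ser livers and 99.3, 79.0 and 90.8 CPM in WT livers. Cys52Ser replicate 2 fell inside the WT range and the other Cys52Ser libraries lay below it. The log2 fold change was -0.71 with an interval from -1.70 to 0.27, adjusted p = 0.372. Without Cys52Ser replicate 2 it was -1.29, adjusted p = 0.0528. GENCODE M21 lists 1 pseudogene copy of Fabp5, which was not analysed here.

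Lipoprotein lipase partners and other fatty acid binding proteins held no calls in the edgeR test described above either. Of 13 partners and regulators of lipoprotein lipase, none was called by edgeR, 4 were higher and 0 lower both at an unadjusted p under 0.05 and in DESeq2. With library totals alone and in limma on FPKM, 1 was called lower and 0 higher. Their median was 0.37, and 0.06 with library totals alone. Every Cys52Ser library lay above every WT library for 4 of these 13 and below for 0. Gpihbp1, which anchors the enzyme to capillary endothelium, was at 27.6 ± 4.54 CPM in Cys52Ser and 25.3 ± 3.57 CPM in WT (adjusted p = 0.720). Of 5 other fatty acid binding proteins none was called, 1 was higher at an unadjusted p under 0.05 and in DESeq2, and the median was 0.36, or 0.01 with library totals alone and -0.01 in limma on FPKM, where none was called. Fabp4, the adipocyte and macrophage form, was at 23.6 ± 0.409 CPM in Cys52Ser and 27.8 ± 5.66 CPM in WT (adjusted p = 0.407).

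**Figure D2:**
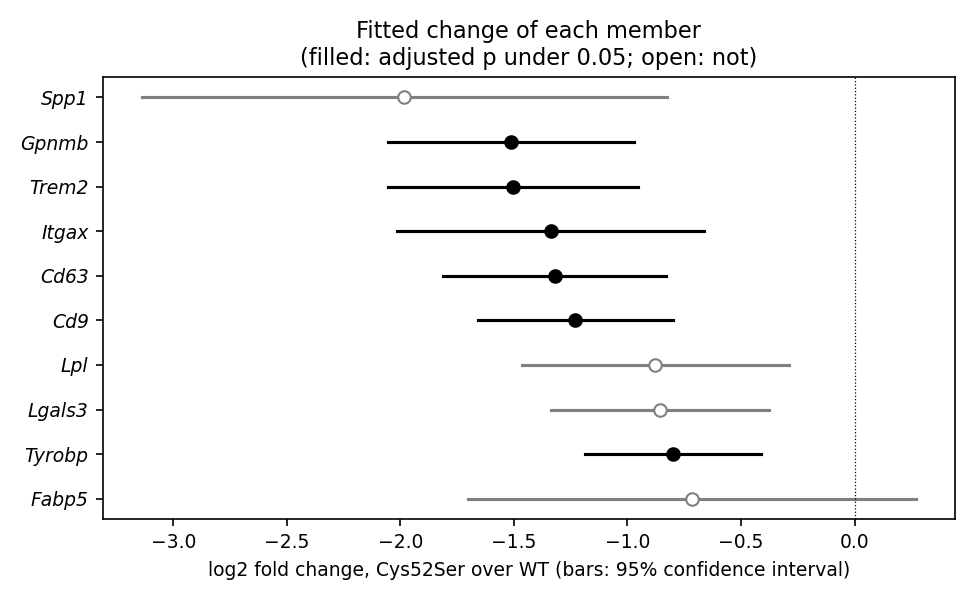
Fitted log2 fold change of Cys52Ser over WT for each member (points) with 95% confidence intervals (bars), filled where the adjusted p was under 0.05. All points lie below 0, from -1.98 for Spp1 to -0.71 for Fabp5, and the interval of Fabp5 alone includes 0.

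On the deposited FPKM scale, which corrects for gene length, the order of levels among members was nearly shared by the groups. Spp1 was highest, at 96.7 ± 66.0 FPKM in Cys52Ser and 482 ± 241 FPKM in WT. Tyrobp followed at 59.7 ± 12.2 and 133.5 ± 17.7 FPKM and Lgals3 at 55.9 ± 12.3 and 131 ± 34.2 FPKM in Cys52Ser and WT, and their levels differed by less than their SD in each group. Gpnmb (24.7 ± 3.65 and 91.2 ± 32.2 FPKM) and Cd9 (19.5 ± 4.86 and 58.3 ± 14.7 FPKM) came next. Fabp5, Lpl and Cd63 lay between 10.3 and 12.4 FPKM in Cys52Ser and between 25.2 and 32.8 FPKM in WT, and neighbours in that order differed by less than their SD. Trem2 itself was among the lowest, at 4.68 ± 0.981 FPKM in Cys52Ser and 17.2 ± 5.53 FPKM in WT. Itgax was lowest of all members at 3.70 ± 0.546 and 12.2 ± 5.85 FPKM.

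The members did not vary alike inside a group. WT replicate 1 was the highest WT library for all 10. In the Cys52Ser group, replicate 1 was highest and replicate 2 lowest for Trem2, Tyrobp, Gpnmb, Lgals3, Itgax and Lpl. For Cd9, Spp1, Fabp5 and Cd63 replicate 2 was highest and replicate 3 lowest. Relative to the mean of the other Cys52Ser libraries, replicate 2 stood at 2.47 times for Fabp5, 1.35 times for Cd63 and 1.24 times for Cd9, but at 0.693 times for Trem2. The same library stood apart in some single genes of other cell types. Krt19, a keratin of bile duct cells, was at 7.77, 61.7 and 5.61 CPM in Cys52Ser livers and 25.4, 13.8 and 12.1 CPM in WT livers. Des, the muscle and stellate cell filament desmin, was at 10.7, 60.1 and 9.76 CPM and S100a4, a calcium-binding protein of fibroblasts and leukocytes, at 10.9, 36.1 and 3.64 CPM in Cys52Ser replicates 1, 2 and 3. Lgals1, another galectin, was at 49.4, 108 and 35.3 CPM in the same order. Des, S100a4 and Lgals1 were named after their values were seen, and their lists spread less over the Cys52Ser libraries. Summed levels there were 981 to 1102 CPM for stellate cell and fibroblast genes and 84.4 to 125 CPM for monocyte genes. Galectins besides Lgals3 summed to 600 to 633 CPM. The cholangiocyte and ductular list, which holds Krt19, ran from 47.7 to 145 CPM. The part of this library's other cell types in the member values was not tested.

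**Figure D3:**
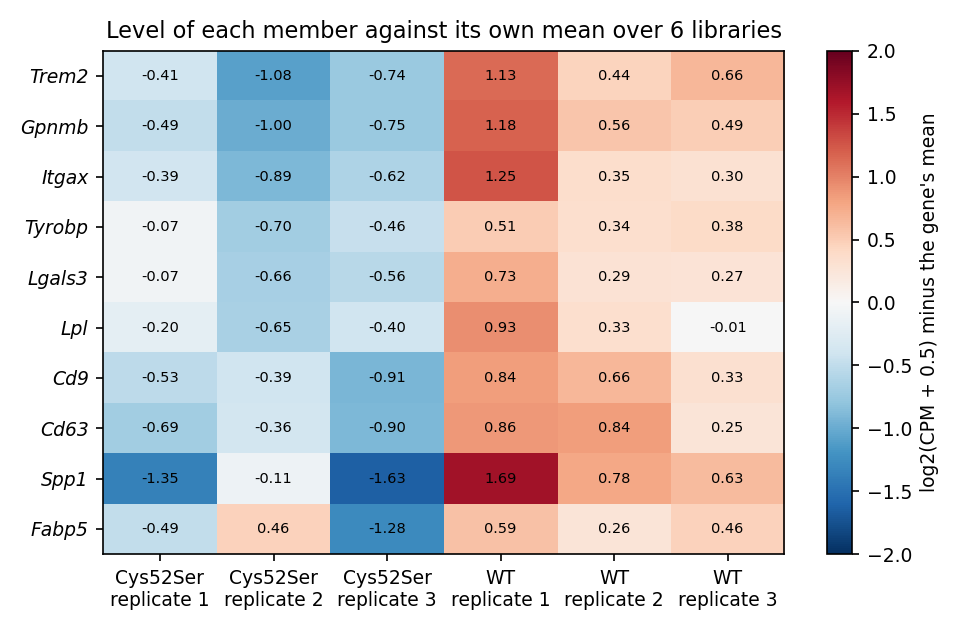
Colour and number give each member's log2(CPM + 0.5) minus its own mean over the 6 libraries, Cys52Ser columns left of WT columns. In Cys52Ser replicate 2, Trem2 is at -1.08 and Gpnmb at -0.996 while Spp1 is at -0.11 and Fabp5 at 0.46.

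The genes closest to Trem2 in pattern were taken as those with the smallest root-mean-square distance in gene-centred log2(CPM + 0.5) over the 6 libraries. The 13266 ranked genes had a mean of at least 1 CPM and passed a filter on symbols. That filter left out gene-model and clone-type symbols, and with them every symbol that starts with C and a digit. Genes so named were not ranked. The 5 nearest were Lat2 (distance 0.071), Gpnmb (0.099), Lyz2 (0.112), Ngfr (0.120) and Capn6 (0.124). Lyz2 is the lysozyme gene of myeloid cells, Ngfr the neurotrophin receptor that marks stellate cells in liver, and Capn6 a member of the calpain family. Itgax ranked 10, Lgals3 130, Cd9 172, Tyrobp 200, Lpl 208 and Cd63 325. Fabp5 at 3246 and Spp1 at 3329 were far down. The distances were not tested and cover both groups and the spread inside each.

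General macrophage genes had a median nearer 0. Of 18 such genes, 3 were called lower, Fcgr3, Lyz2 and Ptprc, and none higher (13 and 0 at an unadjusted p under 0.05, 11 and 0 in DESeq2), with a median of -0.53. Every Cys52Ser library lay below every WT library for 14 of the 18 and above for 0, against 15.2% below among all tested genes. None of the 18 was called in any fit that left out a library. Fcgr3, an antibody receptor, was at 45.0 ± 5.28 CPM in Cys52Ser and 72.7 ± 7.99 CPM in WT (adjusted p = 0.0350). Lyz2 was at 630.3 ± 156 CPM in Cys52Ser and 1599 ± 483 CPM in WT (2.54-fold lower, adjusted p = 0.0403). Ptprc, the pan-leukocyte phosphatase CD45, was at 51.7 ± 6.07 CPM in Cys52Ser and 75.2 ± 2.76 CPM in WT (adjusted p = 0.0430). Csf1r, the receptor on which macrophages depend, was at 221, 173 and 209 CPM in Cys52Ser livers and 238, 204 and 191 CPM in WT livers, and the groups overlapped (adjusted p = 0.833). Adgre1, which encodes F4/80, was at 78.7 ± 12.5 CPM in Cys52Ser and 90.7 ± 18.4 CPM in WT (adjusted p = 0.561). Cd68, a lysosomal glycoprotein, was at 67.6 ± 11.5 CPM in Cys52Ser and 111 ± 19.9 CPM in WT (adjusted p = 0.061). The mean log2(CPM + 0.5) of the 18 genes was 6.08 ± 0.17 in Cys52Ser and 6.58 ± 0.11 in WT (SD, n = 3 each).

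Set against that mean in the same library, 7 members were lower in every Cys52Ser library than in every WT library. The share of all tested genes in that order was not computed for this ratio or for the ratio to Csf1r below. The counts of members can therefore not be set against a background. The log2 ratio of Trem2 was -1.01, -1.35 and -1.19 in Cys52Ser replicates 1, 2 and 3 and 0.06, -0.43 and -0.23 in WT replicates 1, 2 and 3. Its mean difference was -0.98, that of Gpnmb -0.99 and that of Spp1 -1.56. Itgax (-0.76), Cd9 (-0.72), Lgals3 (-0.36) and Tyrobp (-0.31) also did not overlap. For each of these 7 the exact permutation test (two-sided) gave p = 0.1, which 3 against 3 libraries cannot go below, and 0.143 after Benjamini-Hochberg adjustment over 10 members. Cd63 (-0.80, exact p = 0.2), Lpl (-0.33, 0.3) and Fabp5 (-0.37, 0.7) overlapped. With Csf1r alone as the denominator the difference of Trem2 was -1.41 and that of Gpnmb -1.42, and only Fabp5 overlapped (adjusted exact p = 0.111 for the other members). Csf1r itself differed little between the groups. This ratio therefore stays near the fitted log2 fold changes of Trem2 (-1.50) and Gpnmb (-1.51) and is not a separate check on them.

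**Figure D4:**
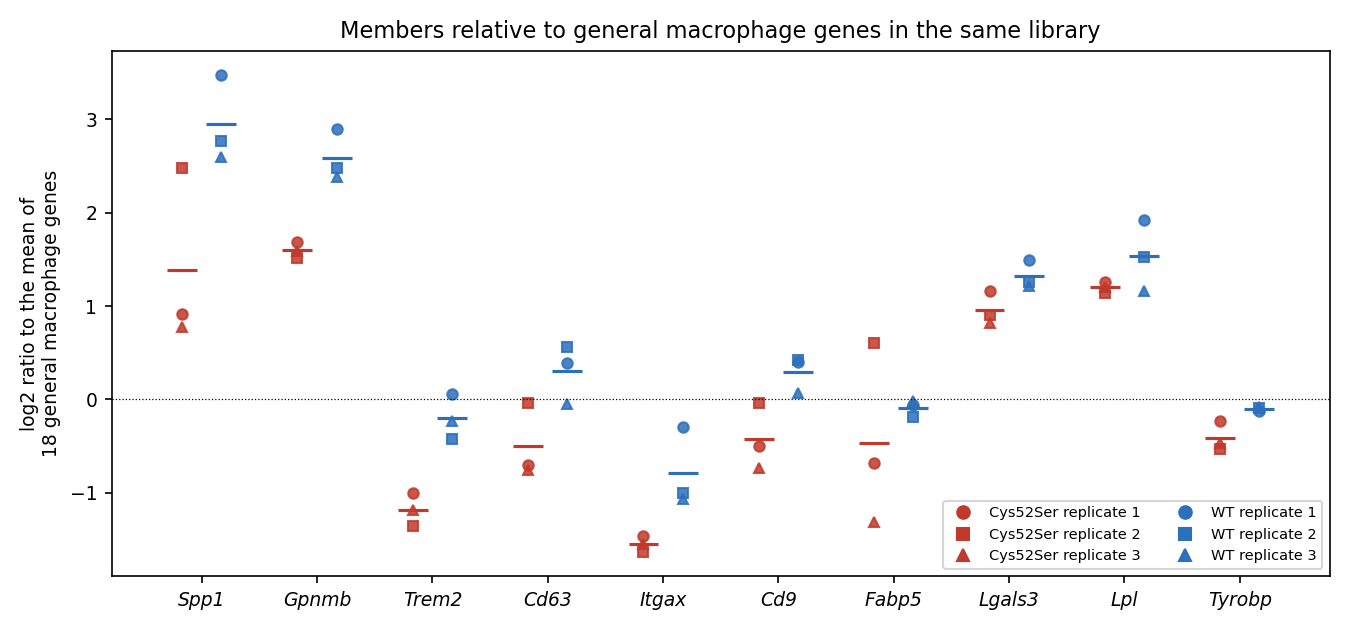
Log2 ratio of each member to the mean of 18 general macrophage genes in the same library, Cys52Ser in red left of WT in blue, bars at group means. The libraries separate for Trem2, with Cys52Ser at -1.35 to -1.01 and WT at -0.43 to 0.06, and mix for Cd63, Lpl and Fabp5.

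Other genes known from lipid-associated macrophages followed in part. Of 24, 7 were called lower and none higher (13 and 2 at an unadjusted p under 0.05, 11 and 2 in DESeq2), with a median of -0.44. The called genes were Cd72, Ms4a7, Cstb, Ctsk, Cd36, Atp6v0d2 and Clec7a. Every Cys52Ser library lay below every WT library for 16 of the 24 and above for 1, against 15.2% below among all tested genes. Ctsk, the collagen-degrading cathepsin K, was 3.81-fold lower, at 4.499 ± 0.728 CPM in Cys52Ser and 17.1 ± 6.44 CPM in WT (adjusted p = 0.0223). Ms4a7, a membrane protein of monocyte-derived macrophages, was 3.11-fold lower, at 6.73 ± 1.91 CPM in Cys52Ser and 20.9 ± 1.87 CPM in WT (adjusted p = 0.0198). Cd36, a fatty acid and lipoprotein receptor, was at 237 ± 15.6 CPM in Cys52Ser and 395 ± 41.8 CPM in WT (adjusted p = 0.0328). Cd72, a lectin-like inhibitory receptor, was 1.86-fold lower (adjusted p = 0.0168) and Cstb, the cathepsin inhibitor cystatin B, 1.70-fold lower (adjusted p = 0.0200). Apoe, the lipoprotein ligand that hepatocytes also make in quantity, was at 17564 ± 4848 CPM in Cys52Ser and 13370.1 ± 1083 CPM in WT and was not called (log2 fold change 0.39, adjusted p = 0.380). The number of these 24 called lower was 1 without Cys52Ser replicate 1 or WT replicate 2, 0 without Cys52Ser replicate 3, and 5 to 6 without each of the others.

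Kupffer cell genes held calls in the other direction, with 3 called higher and 1 lower of 14 (4 and 1 at an unadjusted p under 0.05, 3 and 1 in DESeq2) and a median of 0.46, or 0.11 with library totals alone. Clec4f, a lectin restricted to Kupffer cells in mice, was at 283, 218 and 270.4 CPM in Cys52Ser livers and 48.8, 94.7 and 118 CPM in WT livers (2.95-fold higher, adjusted p = 0.0425). Cd163, the haemoglobin scavenger receptor, was at 39.6 ± 5.16 CPM in Cys52Ser and 2.91 ± 2.20 CPM in WT (adjusted p = 0.0237). Folr2, a folate receptor of resident macrophages, was 2.30-fold higher (adjusted p = 0.0334). Cd207, which encodes langerin, was the gene called lower, at 7.29 ± 1.51 CPM in Cys52Ser and 16.8 ± 0.451 CPM in WT (adjusted p = 0.0207). Timd4, a phosphatidylserine receptor of long-lived resident macrophages, was at 18.8, 15.4 and 21.9 CPM in Cys52Ser livers and 0.579, 10.1 and 4.52 CPM in WT livers, without overlap but also without a call (adjusted p = 0.276). No Kupffer cell gene was called without Cys52Ser replicate 1, Cys52Ser replicate 3 or WT replicate 2. Of 11 monocyte genes, Ccl2, the chemokine that recruits monocytes, was called lower, at 5.47 ± 1.18 CPM in Cys52Ser and 12.01 ± 1.82 CPM in WT (adjusted p = 0.0338). None of the 11 was called higher (4 lower and 0 higher at an unadjusted p under 0.05, 2 and 0 in DESeq2), the median was -0.29, and the call was lost in each fit that left out a library.

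Among 16 regulators tied to this expression programme, Atf3 and Bhlhe41 were called lower and Rxra higher (4 and 2 at an unadjusted p under 0.05, 4 and 1 in DESeq2), and the median was -0.04. Atf3, a stress-induced transcription factor, was at 26.9 ± 4.90 CPM in Cys52Ser and 64.5 ± 8.37 CPM in WT (adjusted p = 0.0168). Bhlhe41, a transcriptional repressor, was at 4.35 ± 1.06 CPM in Cys52Ser and 10.4 ± 0.732 CPM in WT (adjusted p = 0.0267). Rxra, the partner of many nuclear receptors and abundant in hepatocytes, was at 399 ± 49.8 CPM in Cys52Ser and 257 ± 16.6 CPM in WT. Spi1, which encodes PU.1, was at 39.7 ± 8.57 CPM in Cys52Ser and 50.4 ± 8.32 CPM in WT (adjusted p = 0.342). Called lower were 3 without WT replicate 3, 1 without Cys52Ser replicate 1, Cys52Ser replicate 2 or WT replicate 1, and 0 without the other libraries. The call of Rxra was lost in each of the 6 fits, in non-robust fits and with the replicate block. With library totals alone and in limma on FPKM 7 of the 16 were called lower and none higher. Of all genes 2724 of 18648 and 2974 of 13978 were called lower in those fits.

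Markers of further cell types moved with the members, and their part in the member values was not tested. Of 11 stellate cell and fibroblast genes 6 were called lower (Lum, Ngfr, Col3a1, Cygb, Lrat and Dcn), the median was -1.20, and the summed level was 981 to 1102 CPM in Cys52Ser and 1602 to 2777 CPM in WT. Col1a1, a chain of type I collagen, was at 92.4 ± 18.4 CPM in Cys52Ser and 213 ± 91.1 CPM in WT (adjusted p = 0.0823). Of 12 cholangiocyte and ductular cell genes Pkhd1 and Cldn7 were called lower, the median was -1.05 (-1.82 if Cys52Ser replicate 2 was left out and -0.69 if replicate 3 of that group was), and the summed level was 47.7 to 145 CPM in Cys52Ser and 99.1 to 226 CPM in WT. Epcam, an epithelial adhesion molecule, was at 8.52 ± 3.89 CPM in Cys52Ser and 32.4 ± 15.0 CPM in WT (adjusted p = 0.0632), and Krt19 had an adjusted p of 0.806. Of 11 dendritic cell genes H2-Aa, Cd74 and H2-Ab1, which other antigen-presenting cells share, were called lower, the median was -0.54, and the summed level was 445 to 629 CPM in Cys52Ser and 927 to 1248 CPM in WT. Flt3, a receptor found on dendritic cells, was at 3.25 ± 0.679 CPM in Cys52Ser and 4.58 ± 1.04 CPM in WT (adjusted p = 0.347). Every Cys52Ser library lay below every WT library for 10 of the 11 stellate cell, 6 of the 12 cholangiocyte and 5 of the 11 dendritic cell genes. The share of all tested genes in that order was 15.2%. None of these 3 lists had a gene called higher by edgeR or DESeq2 or at an unadjusted p under 0.05. In fits without Cys52Ser replicate 1, Cys52Ser replicate 3 or WT replicate 2, none of their genes was called. Of 6 neutrophil genes none was called by edgeR, 1 was lower at an unadjusted p under 0.05 and in DESeq2, and the summed level was 18.1 to 32.2 CPM in Cys52Ser and 31.4 to 35.9 CPM in WT.

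Hepatocyte and sinusoidal endothelial genes held calls in the higher direction. Of 8 hepatocyte genes Cps1 and Hnf4a were called higher, with a median of 0.89 and a summed level of 114114 to 140703 CPM in Cys52Ser and 44026 to 74409 CPM in WT. Alb, albumin, changed by 1.12 on the log2 scale in the fit without passing (adjusted p = 0.0573). Of 8 sinusoidal endothelial genes Kdr, Dnase1l3 and Cdh5 were called higher, with a median of 0.51 and a summed level of 379 to 476 CPM in Cys52Ser and 290 to 358 CPM in WT. With library totals alone the median was 0.15 and none was called, and in limma on FPKM 1 was called higher. None of these 16 was called lower by edgeR or DESeq2, and none was lower at an unadjusted p under 0.05. No call among them was made without Cys52Ser replicate 1, Cys52Ser replicate 3 or WT replicate 2. Adipocytes were barely represented: Adipoq, Plin1 and Lep were too low to be tested, at means of 0.0736, 0.326 and 0 CPM in Cys52Ser and 0.0695, 0.0219 and 0.0169 CPM in WT. None of the other 3 adipocyte genes was called by edgeR, 1 was lower and 1 higher at an unadjusted p under 0.05, and DESeq2 called 1 lower. With library totals alone, calls were lower for 16 of the 24 other lipid-associated macrophage genes, 13 of the 18 general macrophage genes, 5 osteopontin receptors, 5 tetraspanins, 3 monocyte genes, 10 stellate cell genes, 5 cholangiocyte genes, 4 dendritic cell genes and 1 gene each of beta-2 integrins, neutrophils and adipocytes. None of these lists had a call higher in that fit, while Kupffer cell genes had 3 higher and 1 lower and hepatocyte genes 4 higher and none lower. Of all 18648 genes 2724 were called lower and 293 higher in that fit.

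**Figure D5:**
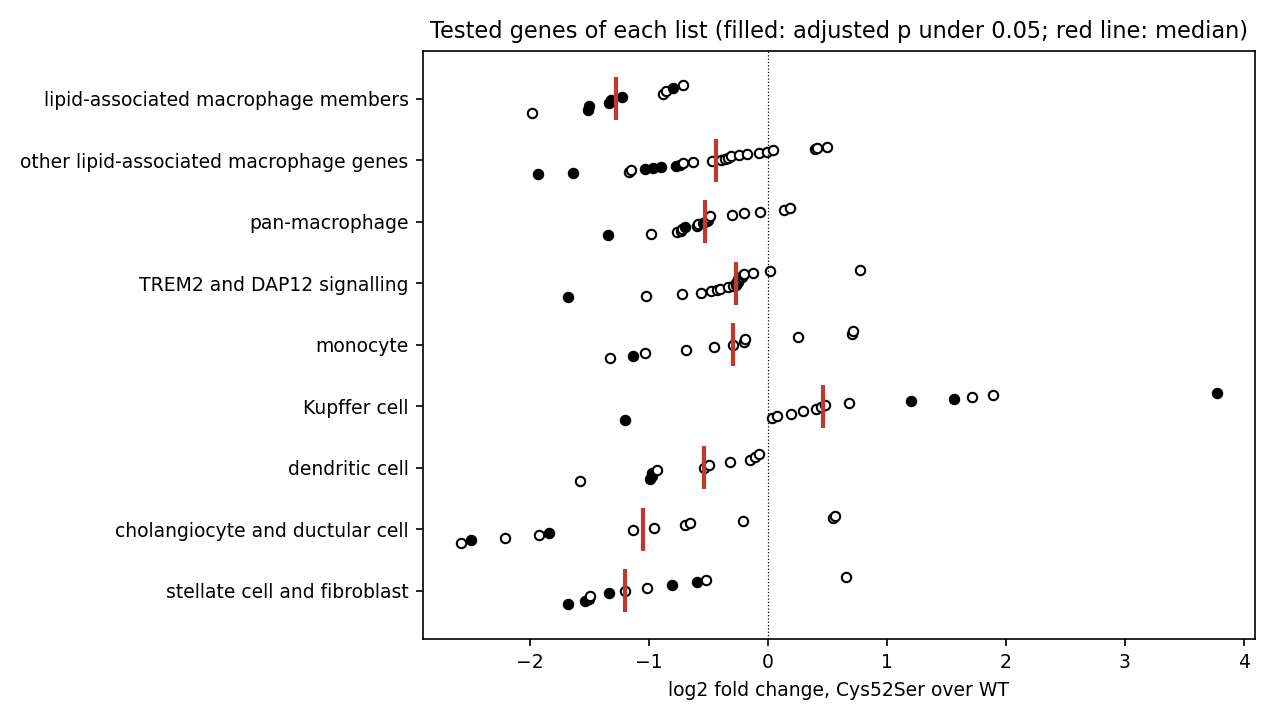
Log2 fold change of Cys52Ser over WT for each tested gene of 9 lists (points, filled where the adjusted p was under 0.05) with the list median as a red line. The members have a median of -1.27 and no point above 0, while Kupffer cell genes have a median of 0.46 and reach 3.77.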

How the data were processed

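Poly(A) RNA of 6 mouse livers was sequenced as paired reads from strand-marked libraries with molecular identifiers, per the labels' protocols. Tools in the submitters' processing notes are StringTie 1.3.4d, HISAT2 2.0.4, cutadapt 1.9, edgeR, DESeq2 and UMI-tools, with no role stated, and the build named there is mm9. The table's coordinates are those of GRCm38: 28524 of 28601 identifiers were found in GENCODE M21, and 86.8% of these had identical coordinates and strand there. Per the file headers, each gene of the deposited table has an estimated count and an FPKM for each library. Of single-transcript genes with 1000 or more counts, 89.9% to 92.4% per library followed FPKM times length within 1%, so the counts track coverage-based estimates, and they were already whole. FPKM is the authors' own scaling for depth and length. The sources used here do not say whether strand was used in counting.

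Titles gave the genotype groups. Genes passing filterByExpr with a minimum count of 10 were scaled by TMM and tested in edgeR 4.0.16 (R 4.3.3) with robust quasi-likelihood fits and genotype as the only term. Benjamini-Hochberg adjustment ran over 18648 genes at a threshold of 0.05, and each SD is over 3 mice. The common biological coefficient of variation was 0.358. All pairs of libraries differed beyond sampling noise (chi-square per degree of freedom of 86.9 or more). Single values had exact two-sided permutation tests over libraries. Lists are described by counts and medians. The alternatives were other scalings, filters, a replicate block, DESeq2 1.42.0, limma 3.58.1 on log2(FPKM + pseudocount) and leaving out each library, 19 in all. The code was tested on simulated data. Itgam, Fabp4, Nr1h3 and Cd53 stand in 2 lists each.

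The members, the 19 lists and the motifs were chosen with earlier results of these data known. Named genes were all members, a set of 17 markers and partners, up to 5 called genes with the smallest p in each list, and the 5 genes nearest to Trem2. Genes outside this rule are marked as such or listed to complete a count. Protein sequences of the members were not used here.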

Additional observations from a re-analysis of the deposited data

How the results depend on the processing

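The members kept a negative log2 fold change in all 19 alternatives. The count called lower, 6 of 10, ranged from 0 to 5 when single libraries were left out, and the count of all genes, 928, from 28 to 790 (fewer samples). Of all genes 3017 of 18648 were called with library totals alone and 2493 of 16343 in DESeq2. In limma on FPKM with pseudocounts of 0.5, 0.1 and 1 the numbers were 3345, 3340 and 3327 of 13978. With library totals 293 of these were higher and 2724 lower, against 469 and 459 with TMM, and the median of all genes moved to -0.35, or -0.27 in limma. All 6 calls held in every alternative that kept all libraries, except that Itgax was lost with no filter on low counts. Lgals3 was called in 10 of 19 alternatives, Spp1 in 7, Lpl in 5 and Fabp5 in 0. Same-numbered libraries of the groups deviated with correlations of 0.005, 0.166 and 0.064, and differently numbered ones with correlations from -0.172 to 0.161. With 3 mice per group these values cannot show whether the numbers pair the mice. With the replicate block 7 members were called (Lgals3 added) and 729 genes in all. The members had at least 1019 counts in each library; the effect of depth was not tested.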
